A study of Mus musculus with 6 samples.

Results

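The variable segments of the T-cell receptor (TCR) alpha chain, the Trav genes, were examined in lymphomas of Dnmt3b-haploinsufficient mice. Members were all genes of the deposited expression table whose symbol begins with Trav, 108 of 34245 genes. The study asked how loss of 1 allele of the DNA methyltransferase Dnmt3b affects the development of blood cancers. RNA came from 3 peripheral T-cell lymphomas (PTCL), named tumors 1, 2 and 3. Each was taken from the lymph node of a terminally sick FVB/N mouse that carried a germline Dnmt3b+/- knockout in every cell. The tumors were bulk tissue from independent samples, so that fewer cells of a type and less RNA per cell cannot be told apart. Lymphomas profiled for DNA methylation, including a Dnmt3a-/- tumor, and normal T cells were not analysed here. With 1 group of 3 tumors, no test between groups was possible and all values are descriptions.

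A TCR alpha chain is encoded by a Trav segment, a joining segment (Traj) and the constant gene Trac, which are brought together in each developing T cell by V(D)J recombination. A recombined Trav segment is brought near the enhancer at Trac and is transcribed with it, so a T cell and its descendants mostly express the Trav genes of their own rearranged alleles. Both alleles can rearrange, and a cell may therefore carry more than 1 rearranged Trav gene.

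The 108 genes lay on the plus strand of chromosome 14 between 243 and 1792 kb before Trac (GRCm38) and fell into 21 subfamilies by the number after Trav. Of these genes, 62 carried the letter d or n, which marks copies of a duplicated stretch of the locus. The ends of the V exons of the 9 genes with at least 5% of the summed Trav expression in 1 tumor are given with the recombination signal that follows them, since this is where a Trav segment is cut and joined. Each line holds the last 30 bases of the V exon and the signal, read from the GRCm38.p6 plus strand, with the 7-base heptamer and the 9-base nonamer in capitals and the 23-base spacer between them in lower case. The segments were, in order, at chr14:52655299-52655367, chr14:53105315-53105383, chr14:52795604-52795672, chr14:53491593-53491661, chr14:52916397-52916465, chr14:53227371-53227439, chr14:53622216-53622284, chr14:53554529-53554597 and chr14:52792748-52792816.
Trav7-1: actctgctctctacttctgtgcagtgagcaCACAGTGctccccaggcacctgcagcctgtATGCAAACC
Trav6n-5: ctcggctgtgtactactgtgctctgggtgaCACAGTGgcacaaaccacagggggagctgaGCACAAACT
Trav6d-5: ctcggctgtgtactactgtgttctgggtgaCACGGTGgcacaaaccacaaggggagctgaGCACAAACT
Trav6-5: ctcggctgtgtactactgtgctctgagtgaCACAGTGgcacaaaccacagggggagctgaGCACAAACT
Trav12d-2: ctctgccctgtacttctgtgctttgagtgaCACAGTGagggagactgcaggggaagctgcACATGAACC
Trav12n-2: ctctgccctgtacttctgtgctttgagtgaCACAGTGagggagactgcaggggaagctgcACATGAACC
Trav12-3: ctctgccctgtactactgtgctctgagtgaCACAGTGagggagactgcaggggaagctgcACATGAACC
Trav14-1: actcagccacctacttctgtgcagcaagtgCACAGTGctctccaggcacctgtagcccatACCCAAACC
Trav9d-1: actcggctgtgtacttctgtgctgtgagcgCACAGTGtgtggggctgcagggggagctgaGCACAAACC
The heptamer CACAGTG stood directly after the V exon in 91 of the 108 Trav genes (84.3%). It was present in 8 of the 9 segments shown and not in Trav6d-5. Trav12d-2 and Trav12n-2 were the same in all bases of these lines. The mice were FVB/N and the sequences are those of the reference genome.

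Each tumor expressed a different leading Trav gene. Trav7-1 led in tumor 1, Trav6n-5 in tumor 2 and Trav14-1 in tumor 3. The lead in tumor 3 turned when the copies of each segment were summed. Trav12-2 and its copies then gave 29.4% of the summed Trav expression there, and Trav14-1 and its copies 25.6%. Expression was given as FPKM, read fragments scaled by exon length and by the depth of the library, and the reads behind each value were recovered from it.

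Trav7-1 stood at 178 FPKM (1840 reads) in tumor 1. It had no read in tumor 2 and 2 reads in tumor 3. In tumor 1 it made up 76.5% of the summed Trav FPKM and 74.1% of the 2483 Trav reads (Wilson 95% interval 72.3 to 75.8%). Its level there was 23.2 times that of the next gene, Trav14-1. Trav7-1 was thus high in tumor 1 and at or below the limit that a count of 0 allows, taken as 3 reads, in the other two. In tumor 2 that limit equalled 0.228% of the Trav reads. All intervals and limits cover counting error only, as reads from amplified libraries are not independent molecules.

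Tumor 2 was led by copies of 1 segment, Trav6-5 and its duplicates. Trav6n-5 stood at 63.5 FPKM (407 reads) in tumor 2 and had no read in tumors 1 and 3. Trav6d-5 stood at 30.9 FPKM (198 reads) in tumor 2, with 3 reads in tumor 1 and 1 read in tumor 3. Trav6-5 stood at 9.70 FPKM (69 reads) in tumor 2 and had no read in the other two. All 3 copies were high in tumor 2 alone. Together they gave 55.9% of the summed Trav FPKM of that tumor, the whole of subfamily 6 there, and 51.1% of its 1318 Trav reads (Wilson 95% interval 48.4 to 53.8%).

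In tumor 3 the level was spread over subfamilies 12 and 14. Trav14-1 stood at 21.4 FPKM (177 reads) and made up 24.2% of the summed Trav FPKM, or 23.02% of the 769 Trav reads (Wilson 95% interval 20.2 to 26.1%). It was also expressed at 7.67 FPKM (94 reads) in tumor 1 and 12.02 FPKM (91 reads) in tumor 2. Trav14-1 was the only gene of the 4 highest in tumor 3 with more than 2 reads in tumor 1. Trav12-3 stood at 14.9 FPKM (137 reads) in tumor 3, with 2 reads in tumor 1 and no read in tumor 2.

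Subfamily 12 as a whole led tumor 3 when copies were summed, with 47.1% of the summed Trav FPKM and 50.5% of the reads (Wilson 95% interval 46.9 to 54.0%). With single segments in place of subfamilies, each given by its highest copy, Trav14-1 led tumor 3 at 29.2%. With all copies of each segment summed, Trav12-2 and its copies led at 29.4%, and Trav14-1 and its copies gave 25.6%. With the highest copies summed by subfamily, a setting chosen after the values were seen, subfamily 12 led at 43.3%. Trav12d-2 had no read in tumor 1, 13.5 FPKM (116 reads) in tumor 2 and 16.4 FPKM (155 reads) in tumor 3. Trav12n-2 had no read in tumor 1, 12.4 FPKM (107 reads) in tumor 2 and 9.54 FPKM (90 reads) in tumor 3. The V exons of this pair are identical, so 1 copy or both were expressed in tumors 2 and 3, whereas Trav12-3 was high in tumor 3 only. The plot of named genes by tumor shows these differences.

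**Figure D1:**
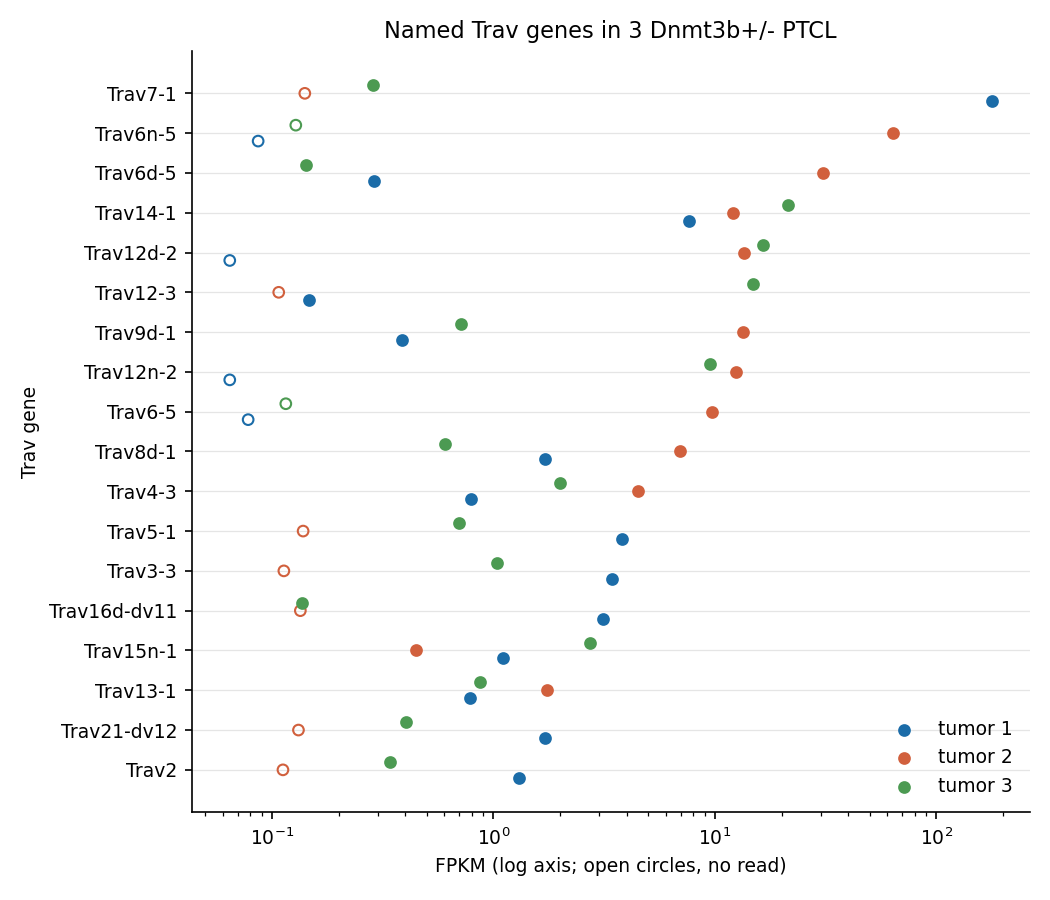
FPKM (log axis) of the 18 named Trav genes in each of the 3 tumors, 1 point per tumor; open circles mark genes without a read, plotted at the deposited value, which stands for 0.9 read. Trav7-1 (tumor 1) and Trav6n-5 (tumor 2) are high in 1 tumor only, whereas Trav14-1 is above 7 FPKM in all 3.

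Of the 19 Trav genes with a mean of at least 1 FPKM, 12 (63.2%) had over 66.7% of their summed FPKM in 1 tumor. The same held for 5.83% of all 11197 genes with such a mean, which were not matched to the Trav genes in level. A filter on the mean favours genes that are high in 1 tumor, and in 11 of the 12 the mean of the other two tumors was below 1 FPKM. Tumor 1 held 4 of them, Trav7-1, Trav5-1, Trav3-3 and Trav16d-dv11. Tumor 2 held 7, namely the 3 copies of Trav6-5, Trav9d-1, Trav8d-1 and a pair of further subfamily 9 genes. Near-identical copies were counted as separate genes, and how reads of 1 transcript were split among them was not tested. Tumor 3 held 1, Trav12-3. The share in the leading tumor was 74.9% for the gene just inside this limit and 63.7% for the one just outside it. At a mean of at least 0.2 FPKM, the count was 32 of 56 Trav genes (57.1%), beside 9.81% of all 14733 genes with such a mean. Tumor 1 held 17 of these, tumor 2 held 12 and tumor 3 held 3, so the order of tumors 1 and 2 depended on the mean required. With at least 3 reads in 1 tumor in place of the mean, it was 34 of 61 beside 14.8%. It was 12 of 19 beside 5.55% with 0.1 FPKM added, 33 of 55 beside 10.5% with FPKM rescaled to a sum of 1000000, and 19 of 19 beside 20.6% at over 50% of the FPKM. With tumor 1, 2 or 3 left out it was 13 of 16, 16 of 19 and 16 of 17, beside 15.8%, 17.6% and 26.2%, where equal levels give 50%.

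The genes held by tumor 1 other than Trav7-1 were expressed at a low level. Trav5-1 stood at 3.80 FPKM in tumor 1, had no read in tumor 2 and stood at 0.702 FPKM in tumor 3. Trav3-3 stood at 3.42 FPKM in tumor 1, had no read in tumor 2 and stood at 1.03 FPKM in tumor 3. Trav16d-dv11 stood at 3.13 FPKM (34 reads) in tumor 1, had no read in tumor 2 and had 1 read in tumor 3. None of the 3 reached 5% of the Trav FPKM in any tumor.

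In tumor 2, genes beside the copies of Trav6-5 were also expressed. Trav9d-1 stood at 13.5 FPKM (86 reads) there, with 0.386 FPKM (4 reads) in tumor 1 and 0.714 FPKM (5 reads) in tumor 3. Trav8d-1 stood at 6.98 FPKM (53 reads) there, with 1.71 FPKM (21 reads) in tumor 1 and 0.602 FPKM (5 reads) in tumor 3. Both genes lay just before Trav6d-5 in the order of the locus, at 1428 and 1442 kb from Trac, with Trav6d-5 at 1425 kb. The 3 genes on each side of Trav6n-5 had no read in tumor 2, as had 79.6% of all Trav genes there.

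Neighbours of the leading gene were low in the other tumors as well. In tumor 1, the gene 16.3 kb before Trav7-1 had 12 reads and the one 12.6 kb after it had 14 reads. In tumor 3, the gene 9.01 kb before Trav14-1 had 6 reads and the one 5.61 kb after it had 15 reads. Among the 3 genes on each side, the highest in tumor 1 was Trav5-1, 32.3 kb before Trav7-1, with 40 reads. In tumor 3 it was Trav4-3, 44.8 kb after Trav14-1, with 17 reads. The leading gene was picked as the highest, so its place above the genes beside it follows from that choice.

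The number of Trav genes detected differed between tumors. Tumor 1 had 44 Trav genes (40.7%) with at least 3 reads, tumor 2 had 21 (19.4%) and tumor 3 had 33 (30.6%). Over all 34125 genes with an exon length the shares were 51.3%, 47.7% and 45.2%. Tumor 2 thus had the fewest Trav genes at this limit, and 86 of the 108 had no read there. At a limit of 10 reads the numbers were 26, 13 and 8, and tumor 3 had the fewest. FPKM were scaled to a depth of 30726570 reads for tumor 1, 18969988 for tumor 2 and 20770928 for tumor 3, so that tumor 1 allowed the lowest levels to be seen.

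The sharing of detected genes differed between pairs of tumors. At least 3 reads were found in all 3 tumors for 7 genes, and at least 10 reads for 2 of these, Trav14-1 and Trav4-3. The levels of Trav4-3 were 0.792, 4.49 and 1.99 FPKM in the order of the tumors. Tumors 1 and 3 shared 24 genes, which were 54.5% of those in tumor 1 and 72.7% of those in tumor 3. Tumors 1 and 2 shared 10 genes, 22.7% of those in tumor 1 and 47.6% of those in tumor 2. Tumors 2 and 3 also shared 10, which were 47.6% and 30.3% of their genes. Over all genes with an exon length, the shared part lay between 86.4% and 98.2% of a tumor's genes in the 3 pairs, but these genes were not matched to the Trav genes in level. Of the 108 genes, 47 (43.5%) stayed below 3 reads in every tumor, beside 46.4% of all genes with an exon length, and 31 (28.7%) had no read at all, beside 39.5%.

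At the level of subfamilies, expression was concentrated in a few. Subfamily 7 gave 78.8%, 0.314% and 1.12% of the Trav FPKM of tumors 1, 2 and 3. Subfamily 6 gave 3.03%, 55.9% and 4.34% in the same order. Subfamily 12 gave 0.299%, 14.4% and 47.1%. Each of the 3 was the leading subfamily of a different tumor. Subfamily 9 reached 14.2% in tumor 2 while it gave 0.311% of tumor 1 and 2.49% of tumor 3. Subfamily 14 was the only one above 4% in all 3 tumors, with 4.06%, 6.46% and 26.5%. The effective number of subfamilies, the inverse Simpson index of the shares, which is 1 when a single subfamily holds all expression, was 1.60 for tumor 1, 2.77 for tumor 2 and 3.32 for tumor 3. Tumor 1 was therefore the most concentrated. With reads in place of FPKM the number of subfamilies was 1.68, 3.10 and 3.07, which turned the order of tumors 2 and 3. Over single genes, with FPKM, the number was 1.70, 5.90 and 7.32. Of the 21 subfamilies, 12 had no read in tumor 2, whereas 3 had none in tumor 1 and 4 had none in tumor 3.

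**Figure D2:**
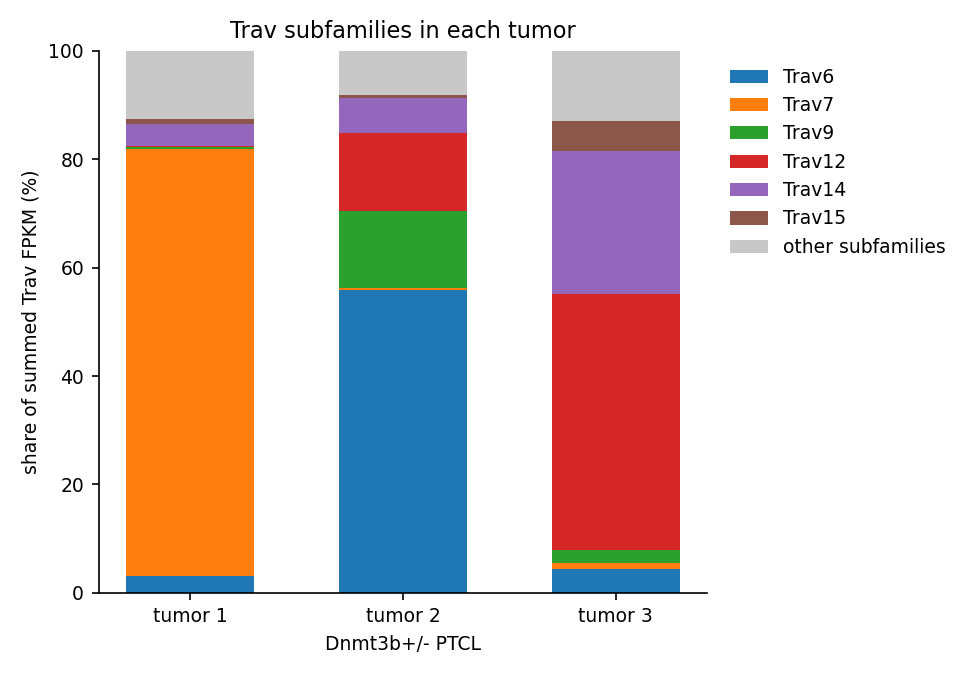
Share of the summed Trav FPKM (%) taken by each Trav subfamily with at least 5% in 1 tumor, stacked for the 3 tumors; all others are in grey. Subfamily 7 takes 78.8% of tumor 1, subfamily 6 takes 55.9% of tumor 2 and subfamily 12 takes 47.1% of tumor 3.

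Remaining named genes were each the highest of their subfamily. Trav15n-1 stood at 1.11, 0.449 and 2.74 FPKM in tumors 1, 2 and 3, and Trav13-1 at 0.787, 1.75 and 0.873 FPKM. Trav21-dv12 stood at 1.72 FPKM in tumor 1 and 0.401 FPKM in tumor 3 with no read in tumor 2, and Trav2 at 1.31 and 0.341 FPKM, again with no read in tumor 2. All 4 stayed below 3 FPKM. The variable segment of invariant NKT cells, Trav11, and its copy Trav11d had no read in any tumor. Neither held a 150-base window that occurred once in the locus, so their reads could have been removed by the quality filter. Of the 40 Trav genes without such a window, 20 had no read in any tumor, against 7 of the 45 genes in which every window occurred once. At least 3 reads in 1 or more tumors were found for 15 of the 40 and 33 of the 45. Whether the filter caused these differences was not tested. Trav1, used by MAIT cells, had 5 reads in tumor 1, none in tumor 2 and 1 in tumor 3.

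Copies that share sequence limit what can be said of single genes. The V exon of 34 Trav genes was identical to that of another Trav gene, and in 33 more it was at least 98% identical. Trav7-1 was at most 93.5% identical to another V exon and Trav14-1 at most 95.8%, and every 150-base window of these exons occurred once in the locus. These genes thus had no rival copy of that length within the locus of the reference. In contrast, the V exons of Trav12d-2 and Trav12n-2 were identical and neither gene held a 150-base window that occurred once, so the split of reads between them is uncertain. Both still had reads after the mapping quality filter, and whether these reads had a unique place was not tested. How the aligner placed these reads is unknown, and the FPKM of the pair carry this doubt. In Trav6n-5, 3.57% of the windows of the V exon occurred once, against 94.4% in Trav6d-5. The V exon of Trav6n-5 differed from that of Trav6-5 by 4 bases and from that of Trav6d-5 by 15 bases, gaps included. Genes with an identical V exon elsewhere gave 1.79%, 14.9% and 35.6% of the Trav FPKM of tumors 1, 2 and 3. The genes at least 98% but under 100% identical to another gave 7.07%, 53.3% and 5.21% in the same order. How reads of FVB/N alleles were placed on these copies was not tested.

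The position of the expressed genes along the locus differed. The 36 genes farthest from Trac gave 84.1%, 35.3% and 27.4% of the Trav FPKM of tumors 1, 2 and 3. The 36 genes nearest to Trac gave 10.5%, 22.7% and 52.8% in the same order. The distal genes thus gave the highest share in tumor 1 and the proximal genes in tumor 3, where they took 51.8% of the reads (Wilson 95% interval 48.2 to 55.3%). In tumor 2 the 36 central genes gave the highest share, 42.0%. The leading genes lay 1565 kb (Trav7-1), 1115 kb (Trav6n-5) and 666 kb (Trav14-1) from Trac. As the d and n copies lie in the distal and central stretches, the placement of reads among copies bears on these shares.

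**Figure D3:**
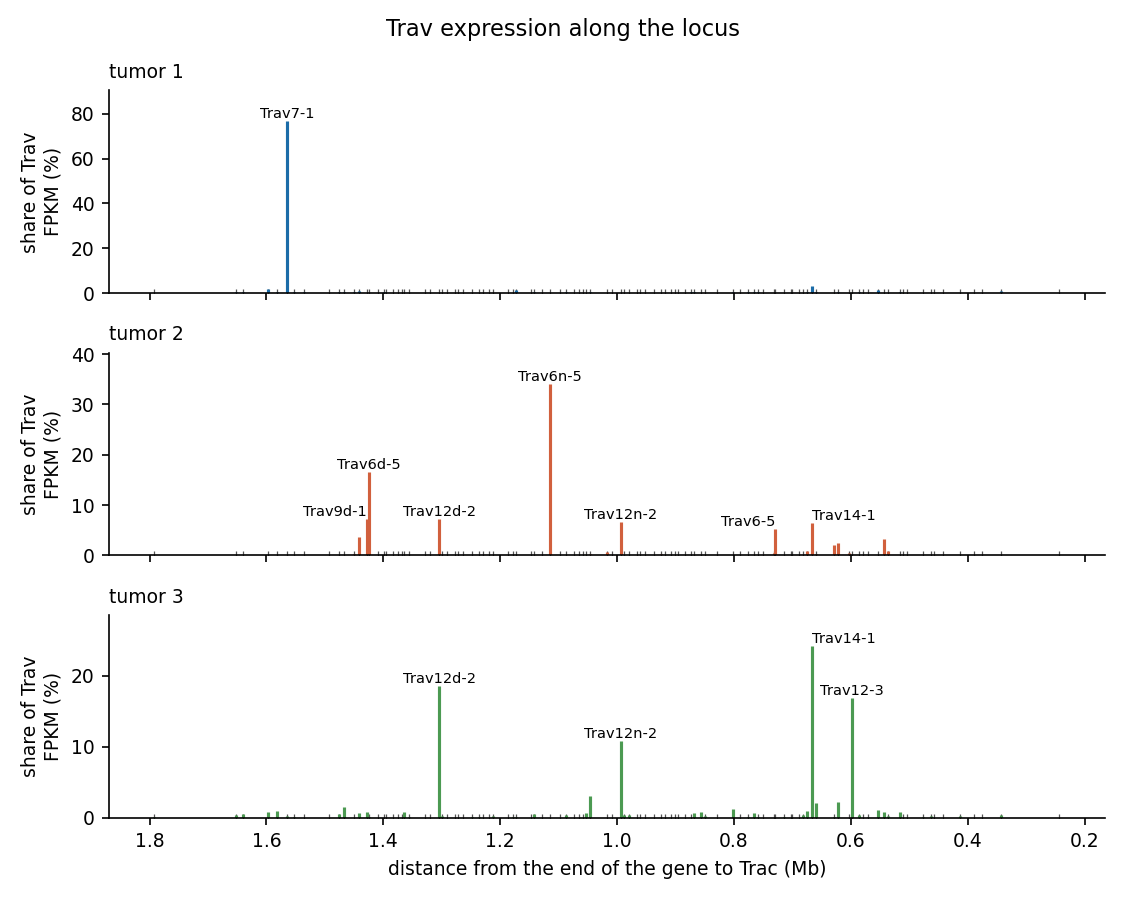
Share of the summed Trav FPKM (%) of each of the 108 Trav genes against its distance to Trac (Mb), 1 panel per tumor with its own vertical axis; ticks mark all genes and names mark genes with at least 5%. A single distal gene stands out in tumor 1, whereas several genes across the locus do in tumors 2 and 3.

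Summed over all members, the Trav level was 232 FPKM for tumor 1, 186 FPKM for tumor 2 and 88.4 FPKM for tumor 3, a mean of 169 ± 73.4 FPKM (SD, n = 3). Trac, the constant gene of the alpha chain, stood at 165, 213 and 182 FPKM. Set against Trac, the Trav sum thus came to 141% (tumor 1), 87.4% (tumor 2) and 48.5% (tumor 3), a wider spread than that of Trac itself (187 ± 24.4 FPKM, SD, n = 3). Cd3e, a signalling chain of the TCR complex, stood at 56.4, 78.1 and 65.3 FPKM and did not follow the order of the Trav sum.

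Traj segments were next compared, since the Traj used by a rearranged allele is transcribed with its Trav. Traj15 led in tumor 1 with 92 of 210 Traj reads (43.8%, Wilson 95% interval 37.3 to 50.6%). Traj4 led in tumor 2 with 56 of 133 reads (42.1%, interval 34.1 to 50.6%), followed by Traj12 with 46 reads. Traj5 led in tumor 3 with 23 of 49 reads (46.9%, interval 33.7 to 60.6%), followed by Traj6 with 12 reads. Each tumor again had its own leading segment, and all 5 of these segments lay 4.17 to 16.0 kb from Trac. Of the 42 Traj segments before Traj12, none had a read in tumor 2, whereas 26 of the 40 before Traj15 had reads in tumor 1, with at most 4 reads each. In tumor 3, the 46 segments before Traj6 had 4 reads in all. Joins between single Trav and Traj segments cannot be read from gene-level values.

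**Figure D4:**
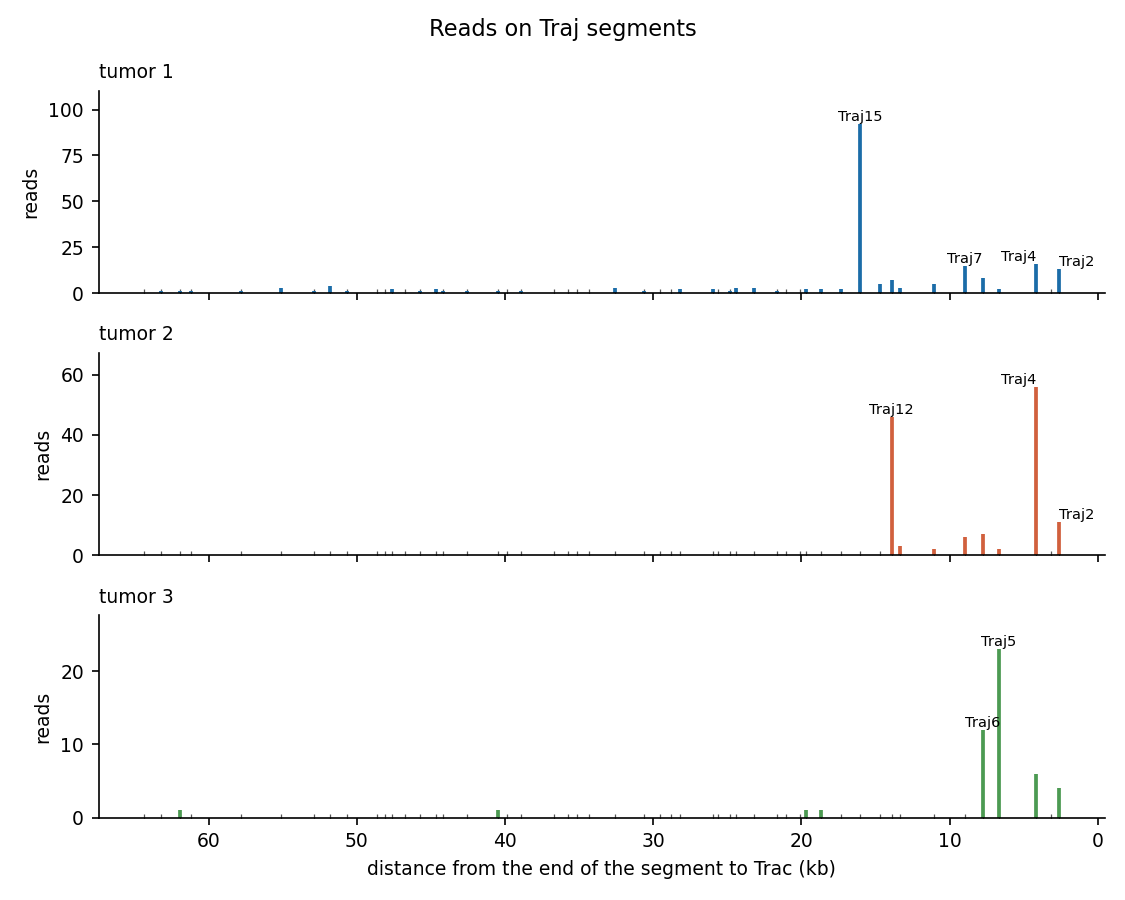
Reads on each of the 51 Traj segments against its distance to Trac (kb), 1 panel per tumor with its own vertical axis; ticks mark all segments and names mark those with at least 10 reads. Traj15 (92 reads) leads in tumor 1, Traj4 (56) and Traj12 (46) in tumor 2, and Traj5 (23) and Traj6 (12) in tumor 3.

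The leading Traj segments are given below with the signal before them, to show the other end of the join. Capitals mark the 9-base nonamer and the 7-base heptamer, with the 12-base spacer between them, and the J segment follows in lower case. They lie on the plus strand (GRCm38.p6) at chr14:54204394-54204481, chr14:54206525-54206610, chr14:54216263-54216353, chr14:54213749-54213838 and chr14:54212660-54212749, in order.
Traj15: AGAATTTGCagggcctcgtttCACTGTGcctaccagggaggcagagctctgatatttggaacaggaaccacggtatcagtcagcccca
Traj12: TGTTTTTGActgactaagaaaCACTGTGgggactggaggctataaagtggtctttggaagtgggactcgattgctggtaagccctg
Traj4: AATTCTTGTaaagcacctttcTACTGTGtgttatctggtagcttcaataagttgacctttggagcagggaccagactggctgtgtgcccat
Traj5: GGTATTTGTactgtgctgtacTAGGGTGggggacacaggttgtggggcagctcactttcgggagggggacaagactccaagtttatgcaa
Traj6: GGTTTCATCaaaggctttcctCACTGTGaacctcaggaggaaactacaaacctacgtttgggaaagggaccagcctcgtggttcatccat
The heptamer CACTGTG stood directly before 15 of the 51 Traj segments (29.4%), among them Traj15, Traj12 and Traj6.

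The beta chain was examined in the same way. Among 22 Trbv genes, Trbv12-2 led in tumor 1 with 318 FPKM and 66.0% of the Trbv reads (Wilson 95% interval 64.7 to 67.2%). Trbv20 led in tumor 2 with 578 FPKM and 98.9% (interval 98.5 to 99.2%), and Trbv5 in tumor 3 with 338 FPKM and 80.6% (interval 79.2 to 81.9%). All 3 tumors thus differed in their leading Trbv gene as well. In tumor 1 the leading Trav gene took a higher share of its family than the leading Trbv gene, and in tumors 2 and 3 a lower one. With copies of a segment summed, the leading Trav segment took 55.9% of the Trav FPKM in tumor 2 and 29.4% in tumor 3. The leading Trbv gene took 99.0% and 81.5% of the Trbv FPKM there, so the difference was smaller but kept its direction. Reads on genes other than the leading one numbered 643 for Trav and 1940 for Trbv in tumor 1, 911 and 41 in tumor 2, and 592 and 624 in tumor 3. The 911 reads include 198 on Trav6d-5 and 69 on Trav6-5, copies of the leading gene.

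**Figure D5:**
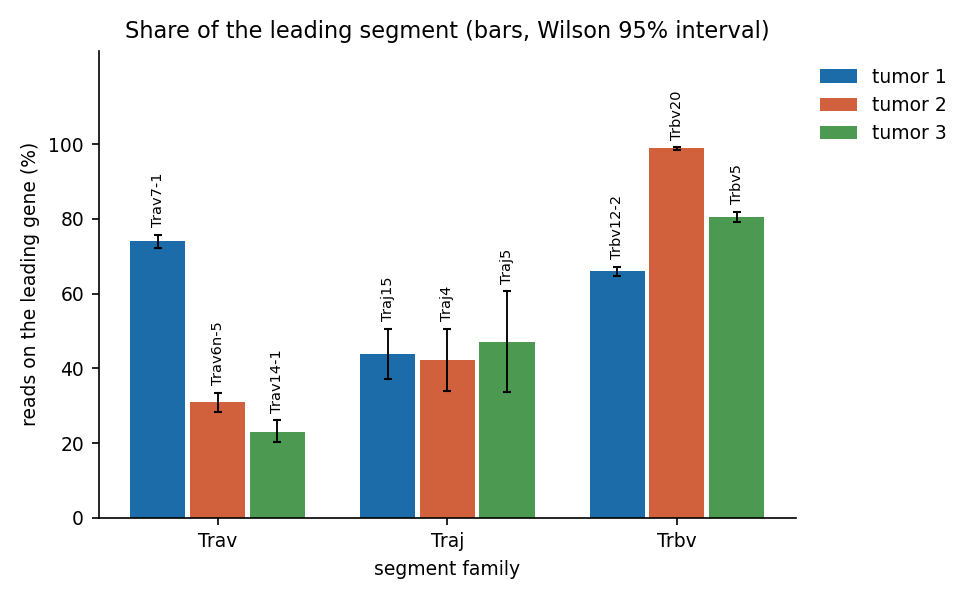
Reads on the leading gene as a share (%) of all reads on Trav, Traj or Trbv genes in each tumor; bars start at 0 and error bars are Wilson 95% intervals, which cover counting error only. The leading Trav gene takes 74.1% in tumor 1, but 30.9% in tumor 2 and 23.02% in tumor 3. Copies of a Trav segment are counted as separate genes.

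Gamma and delta segments were also examined. The only Trgv gene analysed here, Trgv2, stood at 30.1 FPKM (454 reads) in tumor 1, above every Trav gene of that tumor except Trav7-1, and had 6 reads in each of the other two. Among 5 Trdv genes the highest, Trdv1, had 4 reads in tumor 1, none in tumor 2 and 1 in tumor 3. The delta constant gene Trdc stood at 0.312, 0.0409 and 0.187 FPKM and the gamma-delta T-cell regulator Sox13 at 0.294, 0.159 and 0.0335 FPKM. These were the 2 genes analysed of a list of 5 gamma-delta T-cell genes.

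Markers were examined to describe the cells behind these values. All 10 alpha-beta T-cell genes were detected in every tumor, with summed levels of 1059, 1304 and 1246 FPKM in tumors 1, 2 and 3. The co-receptor chain Cd8a stood at 259, 122 and 218 FPKM and Cd8b1 at 435, 166 and 443 FPKM, whereas Cd4 stood at 28.4, 4.28 and 8.22 FPKM. The label of a T-cell lymphoma was thus matched by T-cell genes, with CD8 chains above Cd4 in each tumor. Of 4 listed genes of V(D)J recombination and immature thymocytes, Rag2 (recombinase) and Ptcra (pre-TCR alpha) had no read in any tumor. Rag1 had 2 reads in tumor 1 only. Dntt, the remaining gene of that list, went the other way. It stood at 10.3 FPKM (726 reads) in tumor 1, with 3 reads in tumor 2 and 36 reads in tumor 3.

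Marker genes of other cell types differed in level between the tumors. The 6 B-cell genes summed to 56.6, 13.8 and 104 FPKM in tumors 1, 2 and 3, with Cd79a highest at 23.1, 7.31 and 49.0 FPKM. The 5 myeloid genes summed to 263, 89.6 and 33.2 FPKM, with 215 FPKM in tumor 1 from Lyz2 alone. Cd68 of the same list had another order, with 19.6, 51.2 and 9.27 FPKM. The 5 pancreatic acinar genes summed to 63.8, 335 and 0.358 FPKM, with Ctrb1 highest in tumor 2 at 198 FPKM, and the 3 fibroblast genes to 3.22, 23.4 and 0.327 FPKM. The 3 NK-cell genes summed to 20.7, 45.4 and 48.5 FPKM, mostly from Eomes, which T cells also express. Of the others, the defining gene Ncr1 stayed at or below 0.380 FPKM. Klrb1c stood at 0.308 FPKM (28 reads), 5.77 FPKM (324 reads) and 3.38 FPKM (208 reads) in tumors 1, 2 and 3. The part of other cells, normal T cells included, in the Trav values was not tested.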

How the data were processed

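Gene expression was measured by paired-end RNA-seq in 3 Dnmt3b+/- PTCL. The authors trimmed reads, aligned them to mm10 with STAR, kept reads of high mapping quality and deposited FPKM per gene computed in SeqMonk. Because of the quality filter, reads shared by identical copies may be lost. Merged exon lengths from GENCODE M21 and the value given to genes without a read (0.9 read) gave the depth and the reads of each gene. Within 0.02 reads (plus a relative rounding term), 92.7%, 92.7% and 92.8% of genes were whole or without a read, and all 108 Trav genes were. These shares include the genes without a read, which set the depth and made up 42.4%, 46.0% and 48.5%. Genes without a read were set to 0 in sums over genes and in shares of these sums. They were kept as deposited in means over tumors and in the share of a gene held by 1 tumor. Members and gene lists were chosen with earlier results of these data known. Named Trav genes were those with at least 5% of the Trav FPKM in 1 tumor, the 5 highest per tumor, and the highest of each subfamily at 1 FPKM or more. V exons were aligned with edlib 1.3.9.post1; SciPy 1.17.1 and pandas 2.3.3 were used. Read recovery was tested on simulated data. These were built with the same exon lengths and no-read value, so they cannot show whether both hold in the deposited values.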

Additional observations from a re-analysis of the deposited data

How the results depend on the processing

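Of 77 alternatives over 29 values, 55 moved a value by less than a set limit and 22 moved it by more. For shares the limit was the counting error, and for counts it was a change of 1.5 times. For the effective numbers (0.883) and the mean summed Trav level (73.4 FPKM) it was the SD between the tumors. That SD is not an error of the value, and a shift within it could still turn the order of tumors. With reads in place of FPKM, the leading Trav gene took 74.1% in tumor 1 and 30.9% in tumor 2, the leading subfamily 76.7% and 51.1%, and in tumor 1 the proximal genes took 11.8% and the distal genes 82.2%. Shares of segments, each given by its highest copy, in place of subfamilies gave a leading share of 49.4% in tumor 2 and of 29.2% (Trav14-1) in tumor 3. This changed both the copies and the unit. Outside these 77 alternatives, summing all copies of each segment put Trav12-2 and its copies first in tumor 3, at 29.4%. Trav14-1 and its copies then gave 25.6%. With the highest copies summed by subfamily, an alternative chosen after seeing the data, subfamilies 7, 6 and 12 still led, at 81.0%, 49.4% and 43.3%. The leading genes and subfamilies were the same with reads, with Trav genes above 0.2 FPKM only and with deposited values for genes without a read. At least 1 read was found for 53 Trav genes in tumor 3, and at least 10 reads for 26, 13 and 8 in tumors 1, 2 and 3. Over single genes the effective number was 5.90 in tumor 2 and 7.32 in tumor 3. Over subfamilies with reads it was 3.10 and 3.07, so that the order of these tumors turned. The count of Trav genes held by 1 tumor was 19 of 19 at over 50% of the FPKM (20.6% of all genes), 32 of 56 with a mean of at least 0.2 FPKM (9.81%), 34 of 61 with at least 3 reads in 1 tumor (14.8%) and 33 of 55 with FPKM rescaled to a sum of 1000000 (10.5%), which lets more genes pass the mean. It was 13 of 16, 16 of 19 and 16 of 17 with tumor 1, 2 or 3 left out (15.8%, 17.6% and 26.2%), where equal levels give 50%. The mean summed Trav level was 842 after that rescaling, which changes its scale, and 137 to 209 FPKM with each tumor left out. Leaving out 1 of 3 tumors cannot move a mean by more than their SD, so these means were bound to stay within the limit. The cause of the other shifts was not tested. Leaving out pseudogenes changed nothing, as the table holds none among the Trav genes. The 55 thus include alternatives that could not have passed their limit. No paired analysis was possible because there was 1 group and no test. Few reads limit the Traj values of tumor 3, which rest on 49 reads. The same holds for the Trgv and Trdv values, which rest on 6 or fewer reads except for Trgv2 in tumor 1.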

Other observations

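Dntt, which adds bases at V(D)J joins, stood at 10.3 FPKM (726 reads) in tumor 1, 0.0743 FPKM (3 reads) in tumor 2 and 0.747 FPKM (36 reads) in tumor 3. Tumor 1 was thus the highest, and it also had the highest Cd4 level. Klrb1c, a receptor of NK and some T cells, stood at 0.308, 5.77 and 3.38 FPKM in tumors 1, 2 and 3, while Zbtb16, the regulator of innate-like T cells, stayed at or below 0.0862 FPKM.

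Traj18, the joining segment of invariant NKT cells, had 2 reads in tumor 1, none in tumor 2 and 1 in tumor 3. Traj33, used by MAIT cells, had no read in any tumor.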
